A study of Mus musculus with 9 samples.

Results

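The chemokine transcripts Cxcl1, Cxcl2, Cxcl5, Cxcl12, Cxcl14, Cxcl16, Ccl2, Ccl7 and Cx3cl1 were followed in cultured cells of the newborn mouse skull roof. They were picked by gene symbol, and all 9 were found among the 25860 genes of the count table. The picking was done after the IRE1KO against WT difference of these genes and their covariation over the libraries had been seen, so both are described here without a test. The cells were Osx1-Cre cells, in which Cre recombinase is made under control of osterix, encoded by Sp7 and active in cells committed to become osteoblasts. They were sorted by flow cytometry from calvarial cultures grown in alpha-MEM with 10% serum, and RNA was taken at 90% confluence. A library was made from a pool of 3 to 5 neonates, 2 to 4 days old, and 5 libraries were labelled IRE1KO and 4 WT. IRE1, the product of Ern1, is a stress sensor of the endoplasmic reticulum. Both groups were Osx1-Cre cells, while the sources used here do not give the Ern1 allele or the strain.

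Chemokines are small secreted proteins that bind heparan sulfate on cells and matrix and direct the movement of leukocytes and progenitors through G protein-coupled receptors. The CXC ligands Cxcl1, Cxcl2 and Cxcl5 draw neutrophils through Cxcr2, and the CC ligands Ccl2 and Ccl7 draw monocytes and osteoclast precursors through Ccr2. Cxcl12 holds haematopoietic cells in bone marrow through Cxcr4 and is taken up by the scavenger receptor Ackr3. Cxcl16 and Cx3cl1 are made as membrane-spanning proteins that proteases release. Mesenchymal cells transcribe several of these genes under NF-kB, a factor activated by interleukin-1, tumour necrosis factor and other inflammatory signals.

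The libraries held 18784636 to 22028075 counts. Ern1, on chromosome 11 from 106394650 to 106487852, was not lower in the libraries labelled IRE1KO. In CPM, the count relative to library size after TMM scaling (a method that balances library composition), it had 55.8, 49.8, 54.7, 52.5 and 52.6 there and 54.2, 49.1, 43.9 and 41.5 in WT (log2 fold change 0.17 ± 0.076 SE, adjusted p = 0.306, edgeR). A count per gene does not show missing exons, so it checks no label. Runx2, Sp7, Col1a1, Twist1 and Prrx1 were present in every library, while Bglap, a gene of mature osteoblasts, was at 0 to 0.192 CPM.

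The genes of the neutrophil-attracting ligands lie together on chromosome 5 (GENCODE M21, GRCm38), with Cxcl5 at 90759360 to 90761624, Cxcl3 at 90786103 to 90789600, Cxcl1 at 90891241 to 90893115 and Cxcl2 at 90903871 to 90905938, all on the plus strand. Promoter sequence was read from RefSeq (GRCm38.p6) for 5 of the 9 genes, and Cxcl5, Cxcl16, Ccl2 and Ccl7 were not among them. Shown first are the 3 neighbours Cxcl1, Cxcl2 and Cxcl3, because the mean levels of their transcripts, given below, were all higher in IRE1KO. Each line gives bases -120 to -31 from the RefSeq start, 5′ to 3′ on the gene's strand, and capitals mark matches to the kappaB consensus, the DNA motif of NF-kB. They cover chr5:90891125-90891214, chr5:90903779-90903868 and chr5:90785981-90786070.
Cxcl1: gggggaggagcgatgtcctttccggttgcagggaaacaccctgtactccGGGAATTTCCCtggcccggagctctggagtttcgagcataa
Cxcl2: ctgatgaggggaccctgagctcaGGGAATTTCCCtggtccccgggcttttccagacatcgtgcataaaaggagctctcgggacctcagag
Cxcl3: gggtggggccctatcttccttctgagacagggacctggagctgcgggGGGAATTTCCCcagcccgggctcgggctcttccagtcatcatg
All 3 windows carried the same 11 bases, GGGAATTTCCC, formed by 2 overlapping matches on either strand. The run stood at -71 to -61 in Cxcl1, -97 to -87 in Cxcl2 and -73 to -63 in Cxcl3.

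The same window is given for Cxcl14, which was also higher in IRE1KO, and for Cxcl12, which was not. They lie on the minus strand at chr13:56296582-56296671 and on the plus strand at chr6:117168415-117168504.
Cxcl14: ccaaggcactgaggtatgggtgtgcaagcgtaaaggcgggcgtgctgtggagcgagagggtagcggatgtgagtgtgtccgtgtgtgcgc
Cxcl12: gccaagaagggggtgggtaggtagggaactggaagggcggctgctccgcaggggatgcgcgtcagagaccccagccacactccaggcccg
Neither had a kappaB match in the 300 bases made up of 250 before and 50 after the start, nor had Cx3cl1. Ackr3, a receptor gene given below and also higher in IRE1KO, had none in the same 300 bases either. A match was found in 8.46% of all 32851 promoters of that length. The AP-1 motif TGANTCA, searched on both strands, was in none of the 5 promoters and in 7.81% of all. The motif TGACGTG, the core of an unfolded protein response element, was found in Cxcl1, on the reverse strand at -196 to -190, and in 2.01% of all promoters. A match describes these letters and does not show binding.

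Per kilobase of exon, Ccl7, Cxcl5 and Ccl2 were the most abundant of the 9. Their mean levels over the 9 libraries were 95.4 ± 32.5, 74.3 ± 27.0 and 65.8 ± 20.8 RPKM (SD, n = 9), where RPKM is CPM per kilobase of annotated exon. Cxcl14 followed at 37.2 ± 13.8 RPKM and Cxcl12 at 30.8 ± 11.2 RPKM. Cxcl12 has a long annotated exon length of 8176 bases over all its isoforms, so its level per kilobase would be higher if shorter isoforms prevailed. Cx3cl1 was at 13.4 ± 3.29, Cxcl1 at 4.00 ± 1.02, Cxcl16 at 2.98 ± 0.870 and Cxcl2 at 0.260 ± 0.111 RPKM. Within a library this order held for most neighbours: Ccl7 was above Cxcl5 in 8 of 9 libraries, Cxcl1 above Cxcl16 in 8, and Ccl2 above Cxcl14, Cxcl12 above Cx3cl1, Cx3cl1 above Cxcl1 and Cxcl16 above Cxcl2 in 9. Cxcl5 was above Ccl2 in 6 and Cxcl14 above Cxcl12 in 5, and the order of those pairs differed between the groups. Cxcl14 was above Cxcl12 in every IRE1KO library and in no WT library. Cxcl5 was above Ccl2 in every IRE1KO library and, among the WT libraries, in library 4 alone.

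**Figure D1:**
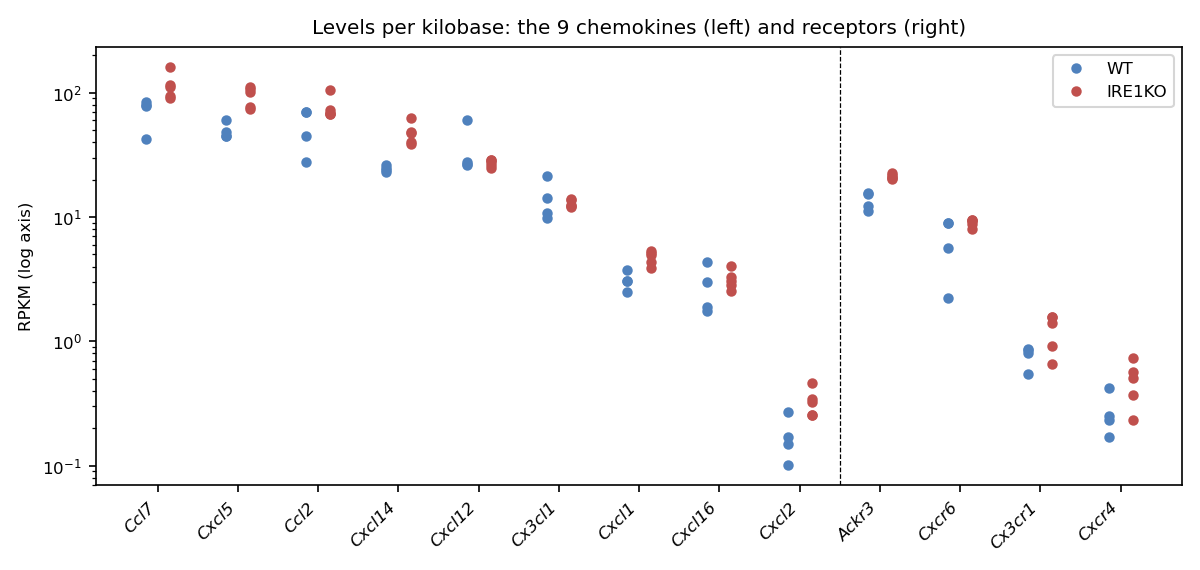
Levels in RPKM on a log axis of the 9 chemokines (left of the dashed line) and of 4 receptor genes (right), 1 point per library, WT in blue and IRE1KO in red. Ccl7 lies highest at a mean of 95.4 RPKM, Cxcl2 lowest of the chemokines at 0.260 RPKM, and the points of Ackr3 do not overlap between groups.

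Cxcl5, the most abundant neutrophil-attracting ligand per kilobase, had 187, 209, 137, 200 and 142 CPM in IRE1KO libraries 1 to 5. In WT libraries 1 to 4 it had 82.8, 90.1, 113 and 84.0 CPM. The groups did not overlap, and IRE1KO libraries 3 and 5 lay nearest to WT library 3. The fitted level was 1.89-fold that of WT (log2 fold change 0.92 ± 0.15 SE).

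Its neighbour Cxcl1 was scarcer but ranked the libraries in nearly the same order (rho 0.93). It had 9.71, 9.93, 7.28, 9.25 and 8.10 CPM in IRE1KO and 5.72, 5.70, 7.07 and 4.65 CPM in WT. Again IRE1KO library 3 and WT library 3 were adjacent without overlap, at a log2 fold change of 0.61 ± 0.14 SE. Cxcl2 was near the detection limit, with 10 to 21 counts per library in IRE1KO and 4 to 11 in WT. Its levels were 0.534, 0.717, 0.531, 0.957 and 0.671 CPM in IRE1KO and 0.562, 0.308, 0.354 and 0.209 CPM in WT. Here WT library 1 lay above IRE1KO libraries 1 and 3, so the groups overlapped, and the log2 fold change was 0.92 ± 0.32 SE. Cxcl1, Cxcl2 and Cxcl3 are related in sequence, and how reads matching more than 1 of them were counted is not stated in the labels.

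Cxcl14, a ligand of mesenchyme and epithelium that draws monocytes and other leukocytes, differed most relative to its spread. It had 87.9, 87.3, 70.6, 113 and 74.0 CPM in IRE1KO and 45.4, 42.0, 43.8 and 47.6 CPM in WT. The WT libraries were close together, with a coefficient of variation of 5.29%, and every IRE1KO library lay above all of them. The log2 fold change was 0.96 ± 0.13 SE, a 1.94-fold level. The gene lies on the minus strand of chromosome 13 from 56288643 to 56296551.

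Ccl2 and Ccl7, the monocyte-attracting ligands, are 8.26 kb apart on chromosome 11, Ccl2 at 82035571 to 82037453 and Ccl7 at 82045712 to 82047525 on the plus strand. Ccl7 lies 24.3 Mb from Ern1. Ccl2 was at 76.1, 119, 76.5, 82.6 and 78.7 CPM in IRE1KO and at 51.1, 79.2, 79.2 and 31.7 CPM in WT. Its groups overlapped, since WT libraries 2 and 3 reached the level of most IRE1KO libraries, while IRE1KO library 2 was high and WT library 4 low. Ccl7 was at 88.8, 129, 74.8, 92.8 and 73.0 CPM in IRE1KO and at 62.7, 64.3, 68.0 and 34.0 CPM in WT. Its groups did not overlap, and the same 2 libraries were at the extremes. The log2 fold changes were 0.52 ± 0.26 SE for Ccl2 and 0.68 ± 0.23 SE for Ccl7. Without WT library 4 they were 0.31 ± 0.20 SE and 0.50 ± 0.18 SE.

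Cxcl12, the ligand that retains haematopoietic cells, was nearly level in 8 of the 9 libraries. It had 204, 216, 233, 226 and 235 CPM in IRE1KO and 214, 227, 218 and 494 CPM in WT. WT library 4 stood at 2.25 times the mean of the other WT libraries, which were at 220 ± 6.62 CPM (SD, n = 3). The fitted log2 fold change of -0.37 ± 0.24 SE rested on that library: without it the value was 0.02 ± 0.051 SE. The gene is on chromosome 6 from 117168535 to 117181367.

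The membrane-anchored ligands were also highest in WT library 4. Cxcl16, on the minus strand of chromosome 11 from 70453983 to 70459984, had 9.32, 9.98, 7.70, 12.2 and 8.54 CPM in IRE1KO and 5.67, 5.29, 9.15 and 13.2 CPM in WT. Cx3cl1, which tethers Cx3cr1-bearing myeloid cells, had 48.1, 54.6, 47.2, 54.3 and 49.0 CPM in IRE1KO and 38.4, 42.5, 55.9 and 83.5 CPM in WT. It lies on chromosome 8 from 94772009 to 94782427. For both genes the WT libraries spanned the whole IRE1KO range, with WT libraries 1 and 2 below it and WT library 4 above it, and for Cx3cl1 WT library 3 was above it too. The log2 fold changes were 0.20 ± 0.27 SE for Cxcl16 and -0.12 ± 0.20 SE for Cx3cl1, and without WT library 4 they were 0.51 ± 0.21 SE and 0.15 ± 0.12 SE.

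**Figure D2:**
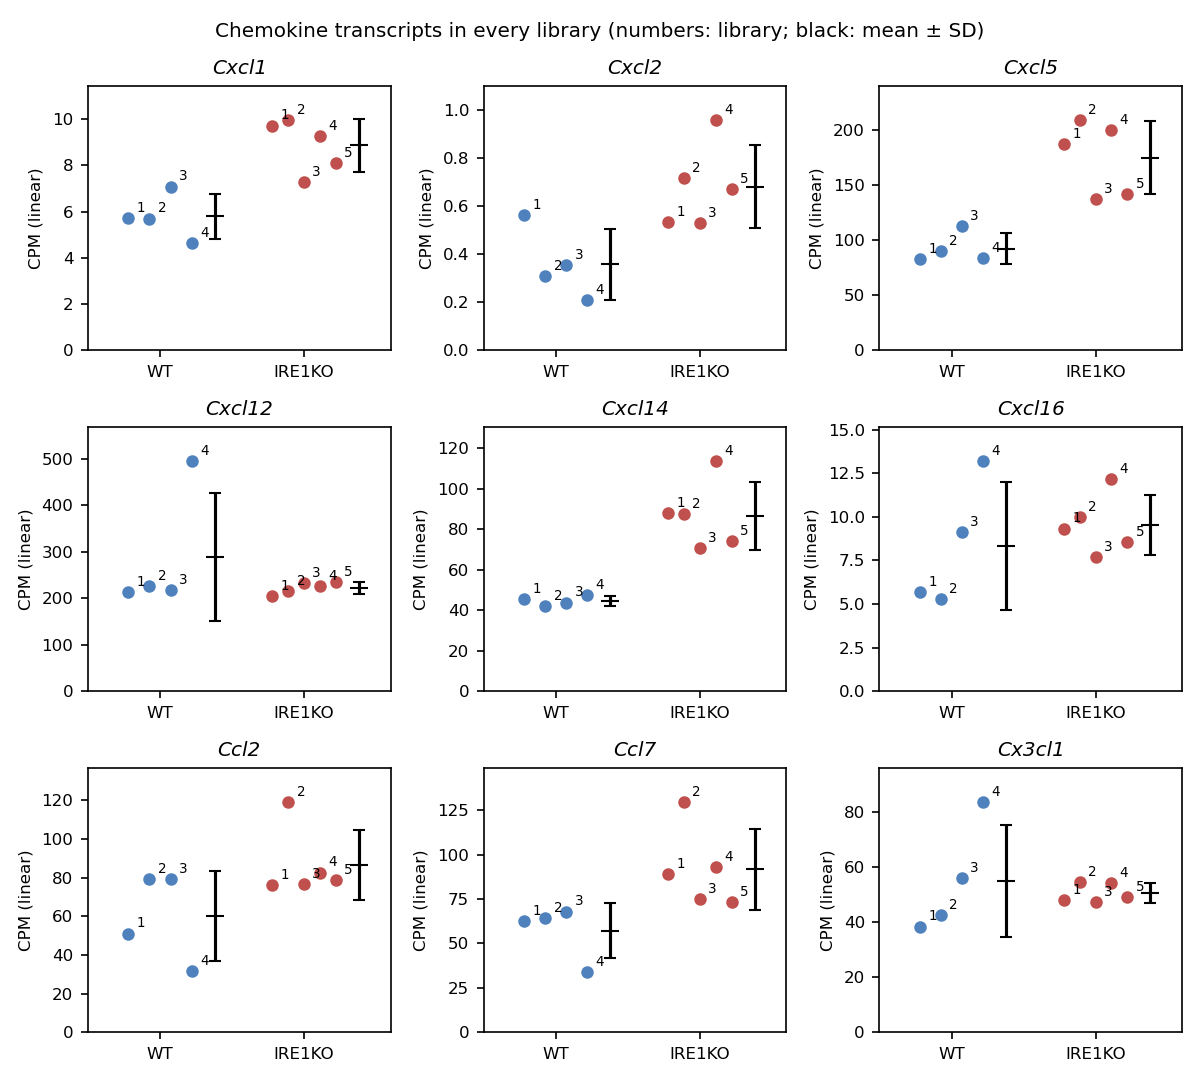
CPM on a linear axis in each of the 4 WT (blue) and 5 IRE1KO (red) libraries, numbered by library, with the group mean and SD in black. Cxcl14 and Cxcl5 are separated by group, and WT library 4 is highest for Cxcl12, Cxcl16 and Cx3cl1 and lowest for Ccl2, Ccl7, Cxcl1 and Cxcl2.

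Of the 9 chemokines, 7 had a positive log2 fold change and 2 a negative one, with a median of 0.61 against -0.0050 over all 13712 tested genes. Cxcl5 and Cxcl14 passed an adjusted p of 0.05 over all genes (edgeR, quasi-likelihood test), as did 0.634% of the genes tested. The groups did not overlap for Cxcl1, Cxcl5, Cxcl14 and Ccl7, and for 6.93% of all tested genes. They were higher in IRE1KO in all 4, as in 3.65% of all tested genes. In the 9 fits that left out 1 library, Cxcl5 passed in 2 and Cxcl14 in 4. With the library number as a block neither passed, with limma voom Cxcl14 alone did, and with DESeq2 Cxcl1 passed beside both. Since the genes were chosen with this contrast in view, nothing is read from these counts. Without WT library 4 all 9 log2 fold changes were positive, with a median of 0.51, while 49.3% of the 13780 genes tested in that fit were positive. Over all genes, DESeq2 called 3.77%, and edgeR called 2.9% without WT library 4 and 8.63% without WT library 1, which are the backgrounds for the passes named below.

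**Figure D3:**
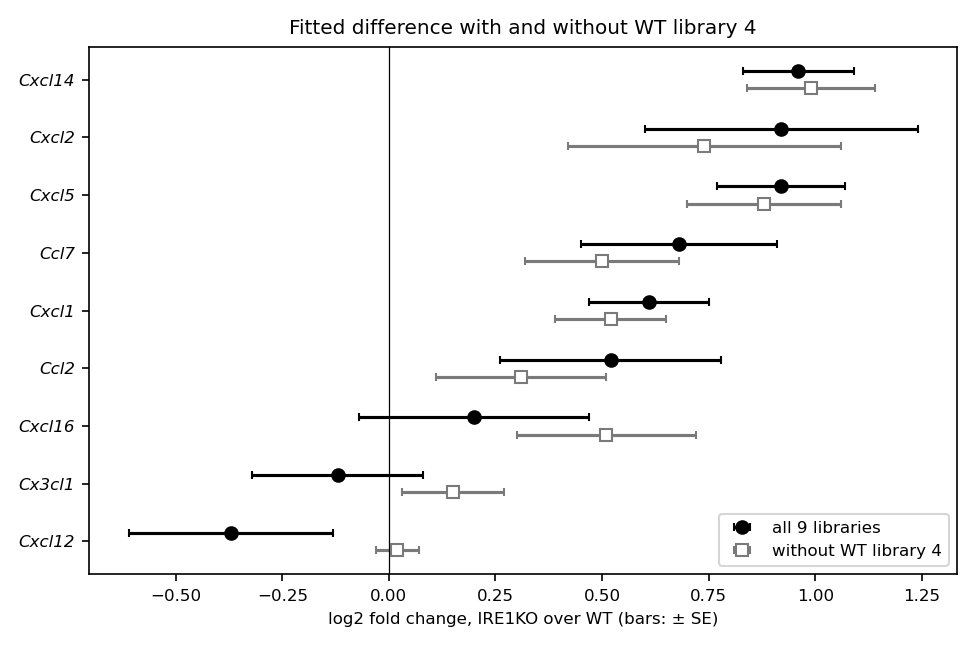
Log2 fold change of IRE1KO over WT for each chemokine from the fit of all genes, with SE bars, over all 9 libraries (filled circles) and without WT library 4 (open squares). Cxcl12 moves from -0.37 to 0.02 and Cx3cl1 from -0.12 to 0.15, while Cxcl14 and Cxcl5 stay between 0.88 and 0.99.

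WT library 4 divided the chemokines. Relative to the mean of the other 3 WT libraries it was at 2.25 for Cxcl12, 1.97 for Cxcl16 and 1.83 for Cx3cl1. It was at 0.454 for Ccl2, 0.513 for Cxcl2, 0.523 for Ccl7 and 0.755 for Cxcl1, while Cxcl5 and Cxcl14 were at 0.882 and 1.09. This library also had the highest sum of osteoblast lineage and mesenchyme markers, a sum carried by Col1a1 and Col1a2, at 53721 CPM against 26402 to 41101 CPM in the others. Its glial marker sum of 84.4 CPM was the highest as well. So, narrowly, was its adipocyte marker sum, at 115 CPM against 114 CPM in WT library 3. The part of any of these in the chemokine levels was not tested.

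The spread within groups differed between the chemokines in the same way. Among WT libraries the coefficient of variation was 47.7% for Cxcl12, 44.1% for Cxcl16, 41.5% for Cxcl2, 38.5% for Ccl2 and 37.0% for Cx3cl1. It was 27.4% for Ccl7, 17.2% for Cxcl1, 15.1% for Cxcl5 and 5.29% for Cxcl14. Among IRE1KO libraries Cxcl12 and Cx3cl1 varied by 5.75% and 6.99%, and Ccl7, the most variable but for Cxcl2, by 24.7%.

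Over the 9 libraries Cxcl1, Cxcl5, Ccl2 and Ccl7 moved together, though Cxcl1 and Ccl2 went from r = 0.81 (rho 0.52) to 0.66 without WT library 4. How Cxcl16 and Cx3cl1 moved with these genes depended on that library, and how Cxcl12 did depended on it in part. For Cxcl14, r was 0.86 with Cxcl1 and 0.93 with Cxcl5, and 0.90 and 0.94 without that library. These values include the difference between the groups. The correlations below are of log2 CPM, computed for all 36 pairs (median Pearson r = 0.50, 23 pairs positive), and are given as a description, since the points share group, culture and library. Cxcl1 and Cxcl5 had r = 0.96 (Spearman's rho 0.93), Ccl2 and Ccl7 r = 0.93 (rho 0.67), and Cxcl5 and Cxcl14 r = 0.93 (rho 0.82). These pairs were chosen after their values were seen. After subtraction of the group means, which takes out the IRE1KO against WT difference, r was 0.87, 0.89 and 0.62 for these pairs. After this subtraction Cxcl14 had r = 0.34 with Cxcl1, 0.14 with Ccl7 and -0.12 with Ccl2. Without WT library 4 these were 0.57, 0.46 and 0.06. Cxcl16 and Cx3cl1 had r = 0.85 (rho 0.83) and 0.94 for the deviations, and 0.89 without WT library 4. With all libraries Cxcl16 had r = 0.27 with Cxcl1, 0.45 with Cxcl5 and 0.50 with Cxcl14. Without WT library 4 it had 0.89, 0.89 and 0.81 with these genes, as high as or near its value with Cx3cl1. Cx3cl1 went likewise from -0.20 to 0.73 with Cxcl1 and from -0.00 to 0.72 with Cxcl5. Cxcl2, at its low counts, had r = 0.80 with Cxcl1, 0.76 with Cxcl5, 0.63 with Ccl2 and 0.80 with Ccl7. For the deviations these values were 0.44, 0.26, 0.34 and 0.57, and without WT library 4 they were 0.13, 0.17, -0.25 and 0.23.

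The opposite course of Cxcl12 and Ccl2 rested on WT library 4, and that of Cxcl12 and Ccl7 rested on it in part. For Cxcl12 r was -0.80 with Ccl2, -0.80 with Ccl7, 0.82 with Cx3cl1 and 0.50 with Cxcl16. Without that library the values were 0.09, -0.26, 0.05 and -0.08. In the deviations from the group means, r went from -0.77 to 0.02 with Ccl2 and from -0.82 to -0.51 with Ccl7. For Cxcl12 and Cxcl1, r went from -0.65 to -0.23, but in the deviations it was -0.68 and stayed at -0.67 without that library. For Cxcl12 and Cxcl5, r went from -0.46 to -0.13, and in the deviations from -0.31 to -0.55. The negative values between Ccl2 and Cx3cl1 (r = -0.44) and between Ccl7 and Cx3cl1 (r = -0.43) became 0.75 and 0.62 without WT library 4. With WT library 4 left out, 27 of the 36 pairs were positive in their deviations from the group means, against 22 with it.

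**Figure D4:**
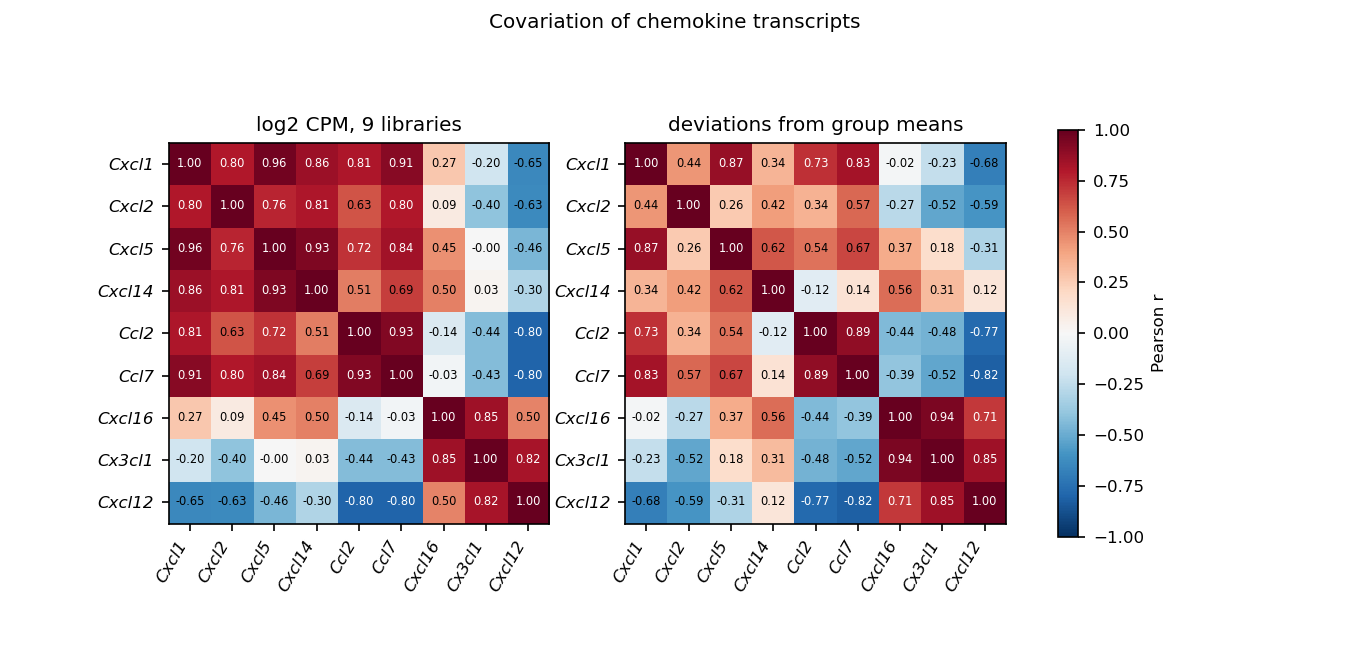
Pearson r between chemokine transcripts over 9 libraries, for log2 CPM (left) and for deviations from the group means (right), on a scale from -1 to 1. Cxcl1, Cxcl2, Cxcl5, Ccl2 and Ccl7 form a block of positive values on both sides, which Cxcl14 joins on the left. The positive values of Cxcl12 with Cx3cl1 and Cxcl16 (0.82 and 0.50, left) were 0.05 and -0.08 without WT library 4.

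Genes with the most similar pattern over the 9 libraries were looked up among 10407 other genes whose mean reached 5 CPM. For Cxcl5 they were Tmem90b (r = 0.98), Ift20 and Grb14 (both 0.96), and for Cxcl1 Dtnbp1, Wdr61 (both 0.96) and Layn (0.95). For Cxcl14 they were Rps28, Evi2a (both 0.97) and Tcirg1 (0.96). Cxcl12 was nearest to Myo6 (0.98), Lrrc42 and Lrp6 (both 0.97). Ccl2 was nearest to Slc35c1 (0.97), Rasl11a (0.95) and Rwdd1 (0.94), and Ccl7 to Wac, Nsf and Rpl4 (all 0.96). Cxcl16 was nearest to Tor3a, Trim34a and Tap1 (all 0.99), the last of which is a peptide transporter of antigen presentation, and Cx3cl1 to Wdr85 (1.00), Mfap2 and Casp12 (both 0.99). Cxcl2, at its low counts, was near to Psmd13 and Dnajc8 (both 0.95). With so many candidates and 9 libraries, values of this size are the top of a long list.

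For the deviations from the group means the nearest genes were others in most cases. They were Odf2l (0.93), Ccdc55 (0.91) and Triobp (0.90) for Cxcl1, Ywhaq (0.95), Yipf1 (0.93) and Trappc1 (0.92) for Cxcl5, and Lime1 (0.96), Stk11 (0.93) and Rpl19 (0.92) for Cxcl2. Cxcl14 was nearest to Gnptab (0.95), Cacnb1 and Tmx2 (both 0.93), and Cxcl12 to Mecom, Irx3 and Rnf150 (all 0.98). Ccl2 was nearest to Tsr2 (0.99), Pir (0.98) and Tmem184c (0.96). Ccl7 was nearest to Hsp90b1, a chaperone of the endoplasmic reticulum (0.99), Pdcd2l (0.95) and Leng1 (0.94). Cxcl16 was nearest to Tor3a, Trafd1 and Gstt1 (all 0.99), and Cx3cl1 again to Wdr85, Mfap2 and Casp12 (all 1.00).

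Among the receptors, Ackr3 rose in IRE1KO. Ackr3, listed in the table by its older name Cxcr7, encodes the atypical receptor that scavenges Cxcl12, and lies on chromosome 1 from 90203980 to 90216751. It had 75.2, 68.1, 69.7, 73.3 and 69.2 CPM in IRE1KO and 40.9, 51.1, 52.6 and 37.3 CPM in WT. The IRE1KO libraries were close together and all above WT. The means were 71.1 ± 2.98 CPM (SD, n = 5) and 45.4 ± 7.54 CPM (SD, n = 4), a 1.56-fold level (log2 fold change 0.65 ± 0.10 SE, adjusted p = 0.0436 over all genes, edgeR's quasi-likelihood test). The difference kept its direction without any 1 library, at 0.56 to 0.72 on the log2 scale. Its adjusted p, however, was 0.0157 to 0.133 in those edgeR fits and passed in 2 of 9, those without WT library 1 or WT library 4. Limma voom also left Ackr3 outside the threshold, as did a fit with the library number as a block, and DESeq2 gave an adjusted p of 1.31e-06.

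Of 22 receptor genes found in the table, 6 could be tested, 8 had 0 counts in every library and 8 were too low to test. Of the 6 tested, 1 rose and none fell, while 0.255% of all tested genes rose and 0.379% fell. All 6 had a positive log2 fold change, as did 48.4% of all tested genes, and their median was 0.66 against -0.0050. An unadjusted p under 0.05 in edgeR was found for 2, and for 16.5% of all tested genes. Cxcr1 and Cxcr2, receptors of Cxcl1, Cxcl2 and Cxcl5, were among those at 0, as was Ccr2, the receptor of Ccl2 and Ccl7. A count of 0 allows up to 3 counts, or 0.136 to 0.160 CPM in a library of this depth, for counting error only. Cxcr4, the signalling receptor of Cxcl12, averaged 0.869 ± 0.342 CPM (SD, n = 5) for IRE1KO and 0.487 ± 0.196 CPM (SD, n = 4) for WT. Its log2 fold change of 0.84 ± 0.37 SE did not pass (adjusted p = 0.304, edgeR). Cxcr6, the receptor of Cxcl16, ranged from 15.6 to 18.3 CPM for IRE1KO and from 4.29 to 17.5 for WT (adjusted p = 0.494, edgeR), with WT library 4 lowest. Cx3cr1, the receptor of Cx3cl1 and a gene of myeloid cells, was at 5.51 ± 1.86 and 3.45 ± 0.666 CPM (adjusted p = 0.259, edgeR).

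Of 29 other chemokine ligands, 17 could be tested, 8 had 0 counts in every library and 4 were too low to test. None passed over all genes in edgeR's test, 2 had an unadjusted p under 0.05, as did 16.5% of all tested genes, and DESeq2 called 1, Cxcl3. The list's median log2 fold change was 0.032 against -0.0050 over all tested genes. Cxcl3, the neighbour of Cxcl1 and Cxcl5, had 5.97, 5.38, 4.20, 6.15 and 4.32 CPM in IRE1KO and 3.73, 2.62, 2.43 and 1.72 CPM in WT. Its groups did not overlap, and the log2 fold change of 0.99 ± 0.22 SE had an adjusted p of 0.0832 in edgeR and 0.00264 in DESeq2. Ccl28, an epithelial CC ligand, had a log2 fold change of -0.64 ± 0.21 SE (adjusted p = 0.194, edgeR). Ppbp, best known from platelets and also on chromosome 5, was the most abundant of the list. It was at 24.7 ± 2.37 CPM in IRE1KO and ranged from 4.39 CPM in WT library 4 to 34.5 CPM in WT library 1 (adjusted p = 0.518, edgeR). Without WT library 1 Cxcl3, Ppbp and Ccl28 all passed, at log2 fold changes of 1.20, 1.36 and -0.80 and adjusted p of 0.0139, 0.0394 and 0.0345. Ccl9, a myeloid ligand, was at 11.6 ± 2.38 and 11.2 ± 2.15 CPM, and Cxcl10, an interferon-induced ligand, at 11.7 ± 6.20 and 7.01 ± 6.28 CPM.

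**Figure D5:**
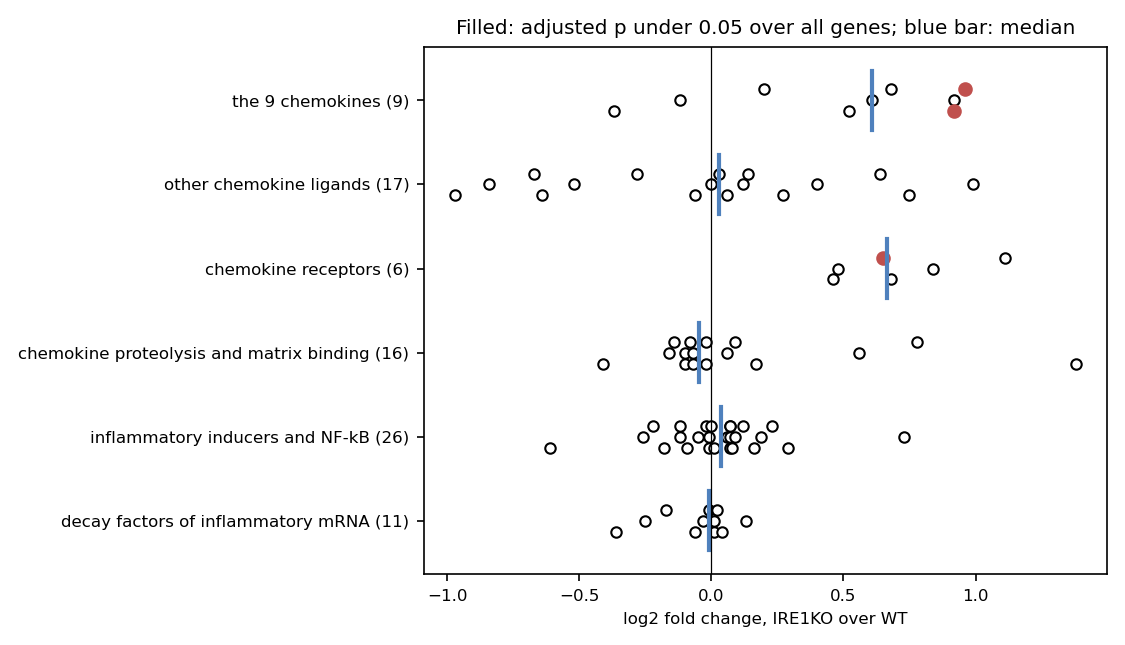
Log2 fold change of IRE1KO over WT for the 9 chemokines and for the tested genes of 5 lists (numbers tested in parentheses), with genes past an adjusted p of 0.05 filled in red and the median as a blue bar. Cxcl5, Cxcl14 and Ackr3 are the filled points, and the medians of the lists other than the receptors lie between -0.043 and 0.035.

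Genes that act on chemokines or induce them did not pass. Of 16 tested genes of proteolysis and matrix binding, which include the sheddases Adam10 and Adam17, the trimming enzyme Dpp4 and the syndecans, none passed in edgeR, 4 had an unadjusted p under 0.05 against 16.5% of all tested genes, and DESeq2 called 1, Ext2. Ext2, a polymerase of heparan sulfate, averaged 165 ± 1.80 CPM with IRE1KO and 181 ± 8.02 with WT (adjusted p = 0.145, edgeR). It had an adjusted p of 0.0185 without WT library 1. Sdc3, a syndecan, was at 238 ± 13.8 and 265 ± 9.75 CPM (adjusted p = 0.189, edgeR). Tnfaip6, which binds chemokines, passed only in the edgeR fit without WT library 4 (log2 fold change 0.93, adjusted p = 0.0459).

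Of 26 tested inflammatory inducers and NF-kB genes none passed in edgeR, 4 had an unadjusted p under 0.05, a share near the 16.5% of all tested genes, and DESeq2 called 1, Il17ra. Il17ra, a receptor chain for interleukin-17, averaged 50.8 ± 3.42 CPM and 41.6 ± 4.11 CPM, without overlap (adjusted p = 0.115, edgeR, and 0.0128 without WT library 1). Tlr4, the endotoxin receptor, ranged from 28.0 to 33.1 CPM in IRE1KO and from 32.7 to 39.1 in WT (adjusted p = 0.160, edgeR, and 0.0451 without WT library 4). Il1b, which induces Cxcl1 and Cxcl5 in many cells, had 0 counts in every library. The list's median log2 fold change was 0.035. In 3 of the 26 genes, Il17ra among them, every IRE1KO library lay above every WT library, against 3.65% of all tested genes. Of 11 tested factors that mark inflammatory mRNA for decay or shield it, none passed in edgeR or DESeq2 and 1 had an unadjusted p under 0.05, again beside 16.5% of all tested genes. That gene was Zfp36, which promotes decay of AU-rich mRNA, at 22.8 ± 4.55 and 29.3 ± 1.34 CPM (adjusted p = 0.222, edgeR). Zc3h12a, an endonuclease of inflammatory mRNA, was at 19.1 ± 1.04 and 17.4 ± 3.08 CPM (adjusted p = 0.599, edgeR).

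All 13 macrophage and myeloid markers were present, with a summed level of 165 to 364 CPM in IRE1KO and 98.9 to 344 CPM in WT, and none passed in edgeR. In a bulk library, more cells of a type and more RNA per cell cannot be told apart. As a description over the 9 libraries, Cxcl16 had r = 0.77 (rho 0.82) with this sum and r = 0.88 (rho 0.80) with the osteoblast lineage and mesenchyme sum. The values with the myeloid sum were 0.93 (rho 0.80) for Ccl12, 0.89 (0.95) for Ccl3, 0.36 (0.28) for Cxcl5, 0.35 (0.38) for Cxcl14 and -0.11 (0.15) for Ccl2. Markers of Schwann cells and glia summed to 12.5 to 18.3 CPM in IRE1KO and 20.7 to 84.4 CPM in WT, with all 6 tested genes negative and 1 passing. Of all tested genes, 48.4% were positive and 0.379% were lower past the threshold. Adipocyte markers summed to 43.5 to 53.5 and 70.5 to 115 CPM, a sum carried largely by Lpl (means of 31.3 and 66.7 CPM). Of the 4 tested, 3 were lower past the threshold, against 0.379% of all tested genes. Cidec was at 0 in every library, and Adipoq and Plin1 were too low to test. Endothelial markers summed to 202 to 223 and 179 to 231 CPM, a sum carried by Eng (means of 193 and 181 CPM). Among them Pecam1, at means of 0.174 and 0.719 CPM, fell, again beside 0.379% of all tested genes. The other 6 tested did not pass. Chondrocyte markers (708 to 1400 and 1355 to 1424 CPM, mostly Col2a1) and marrow reticular markers (401 to 462 and 432 to 546 CPM) had no gene that passed. The glial and adipocyte sums separated the groups as Cxcl5, Cxcl14 and Ackr3 did. With the adipocyte sum r was -0.79 for Cxcl5 (rho -0.70), -0.88 for Cxcl14 (-0.82), -0.84 for Ackr3 (-0.92) and -0.95 for Cxcl3 (-0.93). With the glial sum it was -0.71 for Cxcl5 (-0.67), -0.80 for Cxcl14 (-0.77), -0.78 for Ackr3 (-0.88), -0.94 for Cxcl3 (-0.88) and -0.90 for Cxcl2 (-0.70). These values span both groups and so include the difference between them, and the part of either cell type in it was not tested.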

How the data were processed

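Poly(A) RNA of 9 cultures was sequenced from strand-marked libraries, prepared and sequenced in 1 batch per the labels' protocols. The authors deposited raw counts of reads for each gene. STAR, limma and mm10 are named per the submitters' processing notes, and the program that counted reads, its annotation and its use of strand are not stated. Genes were tested in R 4.3.3 with edgeR 4.0.16 (filterByExpr, TMM, robust quasi-likelihood test, genotype as the sole term) and Benjamini-Hochberg adjustment at 0.05 over 13712 genes. The steps were tested on simulated counts. CPM and RPKM were computed from the counts with TMM scaling and exon lengths of GENCODE M21, and log2 CPM with a prior count of 2. Alternatives were DESeq2 1.42.0, voom in limma 3.58.1, RLE scaling, no filter, the replicate number as a block and omission of each library. Python 3.11.15 with pandas 2.3.3 and SciPy 1.17.1 prepared tables, and matplotlib 3.10.9 drew figures.

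The 9 members and all lists were chosen with earlier results of these data known. Named genes were the members and Ern1. For each list they were the 4 genes with the smallest p if any passed, otherwise 2, and for ligands and receptors also the 3 most abundant. For each member the 3 genes most alike were named. A receptor and a gene most alike that this rule names are not reported here. Genes that passed under an alternative, those at 0 and markers were named after their values were seen. Ackr4 and Cebpd were not analysed here. The labels call each pool of pups 1 biological replicate. The labels do not say whether replicate numbers pair libraries. The limit given for a count of 0 covers counting error only, while SDs and SEs include variation between libraries.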

Additional observations from a re-analysis of the deposited data

Results flagged for a closer look

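The chemokines and Ackr3 were searched for libraries far from the rest of their group, which chance alone marks in about 1 of 20 groups, over 20 groups in all. Cxcl12 in WT library 4, at 494 CPM, lay above the other WT libraries by 0.954 of the group's range. Ccl7 in the same library, at 34.0 CPM, lay below the other WT libraries by 0.846 of the range. Ccl2 in IRE1KO library 2, at 119 CPM, lay above the other IRE1KO libraries by 0.848 of the range. Without WT library 4 the log2 fold changes of Cxcl12 and Ccl7 were 0.02 and 0.50, and without IRE1KO library 2 that of Ccl2 was 0.38.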

How the results depend on the processing

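Of 126 refits of the chemokines' log2 fold changes, 124 kept their direction and 2 reversed, both without WT library 4: Cxcl12 at 0.02 and Cx3cl1 at 0.15. When 1 library was left out, Cxcl12 ranged from -0.49 to 0.02 and Cx3cl1 from -0.26 to 0.15. The count of 87 changed genes became 45 without the filter, 582 with DESeq2, 16 with limma voom, and 2 to 1192 when 1 library was left out, the extremes being IRE1KO library 2 and WT library 1. With the replicate block over libraries 1 to 4 it was 0 in edgeR, with 1594 genes at an unadjusted p under 0.05. The receptor count of 1 became 0 with the replicate block and with limma voom, and 0 to 2 without 1 library. Deviations of same-numbered libraries had r = 0.15, -0.20, -0.19 and 0.47. IRE1KO libraries 1 and 4 correlated best with the WT library of their own number, and IRE1KO libraries 2 and 3 did not. So few values cannot decide whether the numbers pair libraries. DESeq2 called 1 gene among the other ligands, 1 in proteolysis and binding and 1 among the inducers, where edgeR called 0, and leaving out 1 library gave 0 to 3, 0 to 1 and 0 to 1. The median r over the 36 pairs was 0.30 with Spearman's rho and 0.43 to 0.68 when 1 library was left out, highest without WT library 4. RLE scaling kept all of these counts. At this depth Cxcl2, at 4 to 21 counts, and most receptors were too low for a firm value.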
